A study of Mus musculus with 12 samples.

Results

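Carbonic anhydrases are enzymes that turn carbon dioxide and water into bicarbonate and a proton. The genes described are Car1, Car2, Car3, Car4, Car7, Car8, Car9, Car12 and Car13, 9 of the 55487 genes in the count tables, found by matching each row's Ensembl identifier to its mouse gene symbol. All 9 were among the 19581 genes with enough counts to be tested. RNA was sequenced from crypts freshly isolated from the mouse intestine (tissue) and from crypt-derived epithelial cells grown as monolayers for 24 h, each for the small intestine (SI) and the large intestine (LI), with 3 libraries in each of 4 groups. The groups address how closely monolayers resemble the tissue they came from and how SI and LI differ.

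Mice were of strain C57BL/6, of either sex and 6 to 10 weeks old, without a genetic alteration named in the labels. Each tissue library is 1 mouse and each monolayer library is a pool of culture wells, so the spread among monolayer libraries is that between pools of wells. Monolayers were plated on Matrigel, a basement membrane gel, in control medium without any drug, which holds Wnt3a, EGF, Noggin and R-spondin-1. The medium used for plating held Wnt3a, EGF and R-spondin-1, without Noggin, and the kinase inhibitors CHIR-99021, LDN-193189 and Y-27632. It was exchanged for the control medium after plating. SI monolayers came from the jejunum, and LI crypts were released with Collagenase D and Dispase in addition to the EDTA used for SI crypts, so that region and release method cannot be told apart.

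Bicarbonate made by these enzymes feeds the exchangers and channels by which the gut epithelium absorbs salt and secretes alkali. Car1, Car2, Car3, Car7 and Car13 are cytosolic enzymes, Car4 is anchored to the outer face of the plasma membrane, for example on the brush border, and Car9 and Car12 span the membrane with the catalytic domain outside. Catalysis needs a zinc ion held by 3 histidines. Car8 is a cytosolic relative without catalytic activity that binds the inositol trisphosphate receptor.

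The zinc site can be read in the coding sequence. The following stretches of exon sequence run 5′ to 3′ along the coding strand (GRCm38, GENCODE), with the codons aligned to the zinc-binding histidine codons of Car2 in capitals, and are shown for Car2 as the reference and for the genes with the largest share of the family's RNA in at least 1 group (Car1, Car4 and Car13).
Car1: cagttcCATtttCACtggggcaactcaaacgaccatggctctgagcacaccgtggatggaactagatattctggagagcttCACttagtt
Car2: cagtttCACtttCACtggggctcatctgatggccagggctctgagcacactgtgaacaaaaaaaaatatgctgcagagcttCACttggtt
Car4: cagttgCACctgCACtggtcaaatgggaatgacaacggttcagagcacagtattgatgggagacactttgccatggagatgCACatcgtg
Car13: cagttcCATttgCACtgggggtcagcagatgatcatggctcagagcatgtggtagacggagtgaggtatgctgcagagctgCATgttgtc

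The stretch of Car2 covers bases 274 to 363 of its coding sequence of 780 bases. All 3 capital codons encode histidine in Car1, Car2, Car4 and Car13, as they do in the aligned stretches of Car3, Car7, Car9 and Car12.

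Levels between genes were compared per length, as RPKM, the counts per kilobase of exon scaled to library size. The set of carbonic anhydrases that made up most of the summed level differed in each group. In SI tissue, Car4 made up 79.0% to 83.2% of the summed RPKM of the 9 genes. In LI tissue, Car1 made up 40.3% to 77.0%, Car4 11.8% to 33.2% and Car2 9.02% to 25.8%. In SI monolayers, Car13 made up 51.3% to 53.2% and Car9 29.1% to 33.9%, whereas Car4 made up 2.68% to 3.74%. LI monolayers had Car1 at 26.3% to 28.9%, Car2 at 24.8% to 25.8%, Car13 at 20.2% to 21.3% and Car9 at 15.9% to 17.4%.

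The summed level itself was lower in monolayers of either region. It was 441.5 ± 55.2 RPKM in SI tissue and 111.1 ± 5.77 in SI monolayers (SD, n = 3 each). In LI it was 2041 ± 1045 RPKM in tissue, with libraries from 1412 to 3248, and 121.6 ± 6.87 in monolayers. The tissue groups did not overlap, whereas the highest SI monolayer library, at 117.6 RPKM, lay above the lowest LI monolayer library, at 115.6. In bulk RNA, fewer cells of a type and less RNA per cell cannot be told apart, here and in each result that follows.

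**Figure D1:**
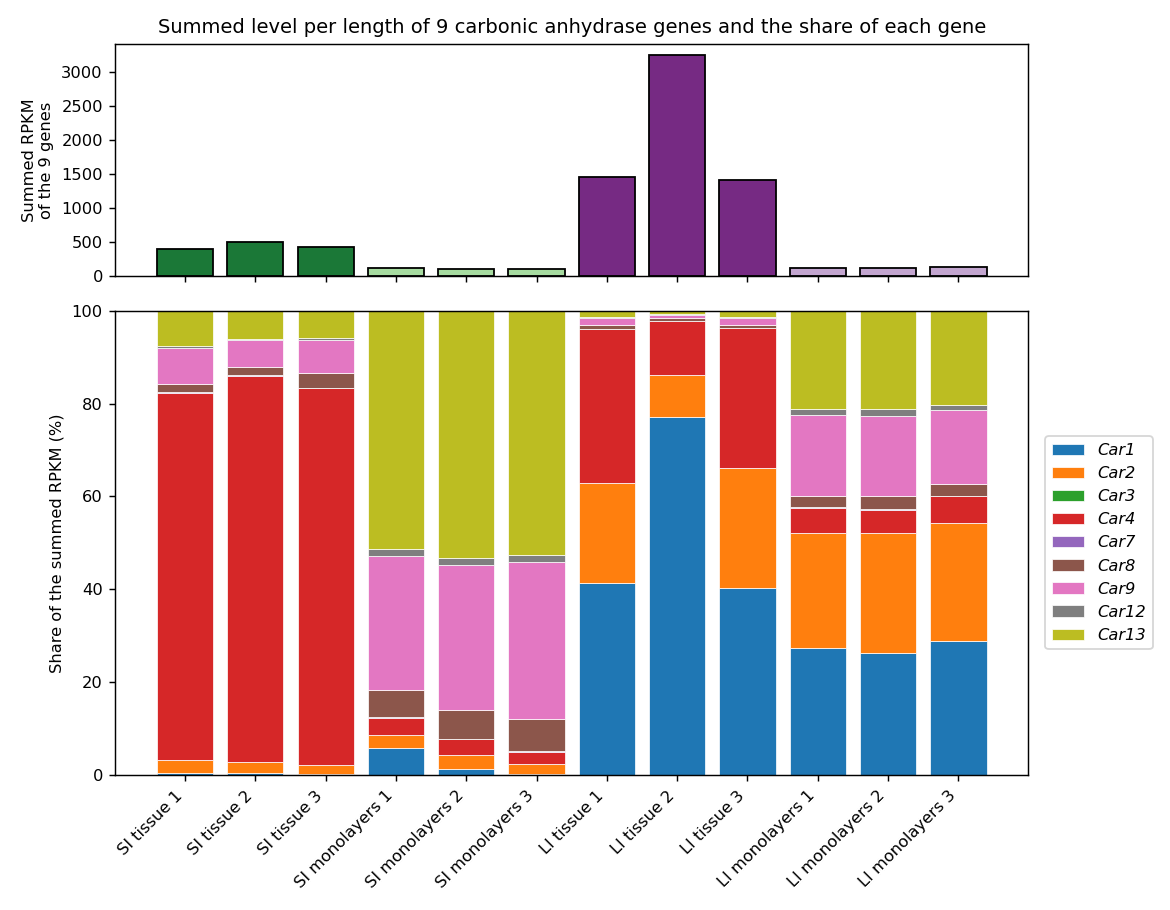
Upper panel: summed RPKM of the 9 carbonic anhydrase genes in each of the 12 libraries (bars). Lower panel: the share of each gene in that sum in percent (stacked colours). Car4 fills most of the SI tissue bars, with 79.0% to 83.2%, and Car13 and Car9 most of the SI monolayer bars; the second LI tissue library has the tallest bar, at 3248 RPKM, of which Car1 is 77.0%.

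Libraries held 59016196 to 76216530 counts, at which 3 counts, taken as the limit that a count of 0 allows, equal 0.0391 to 0.0525 CPM (counts scaled to library size), a limit for counting error only. Per-gene differences were tested with edgeR on the counts in 1 model of the 4 groups, and a gene was called where its adjusted p was under 0.05 and its log2 fold change at least 1 in size. As a check of the labels, 6 enterocyte genes summed to 6040 to 10400 CPM in SI tissue and 179 to 326 CPM in LI tissue, and 6 goblet cell genes to 5480 to 8750 CPM and 15300 to 19500 CPM. In monolayers the enterocyte sum was 1980 to 2170 CPM for SI and 77.6 to 113 CPM for LI, and the goblet cell sum 4550 to 4670 CPM for SI and 1490 to 1670 CPM for LI. The enterocyte sum was thus higher in SI in both preparations, whereas the goblet cell sum was higher in LI for tissue and in SI for monolayers.

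In SI monolayers against SI tissue, 4 of the 9 carbonic anhydrase genes were called: Car13 rose, and Car2, Car4 and Car7 fell. Over all tested genes 26.1% were called, 9.71% higher and 16.4% lower. The median log2 fold change of the 9 genes was -0.14, beside -0.049 over all tested genes. In LI monolayers against LI tissue, 6 of the 9 were called and all 6 fell: Car1, Car2, Car3, Car4, Car8 and Car12. Here 38.0% of all tested genes were called and 23.5% were lower, and the median of the 9 was -1.97, beside -0.052 over all tested genes.

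Between the regions, Car7 was called higher in SI tissue than in LI tissue, and Car1, Car2, Car3 and Car12 were called lower, 5 of 9 where 22.7% of all tested genes were called, 11.6% higher in SI and 11.1% lower. In monolayers, Car8 and Car13 were called higher in SI and Car1, Car2 and Car3 lower, again 5 of 9, beside 21.2% over all tested genes, 12.4% higher and 8.88% lower. The change in monolayers differed between SI and LI for 4 of 9, Car1, Car2, Car8 and Car12, as tested by the interaction of region and preparation, each with a higher log2 change in SI, where 20.0% of all tested genes were called, 11.4% higher in SI and 8.51% lower. These 5 comparisons share libraries and are not independent of each other.

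**Figure D2:**
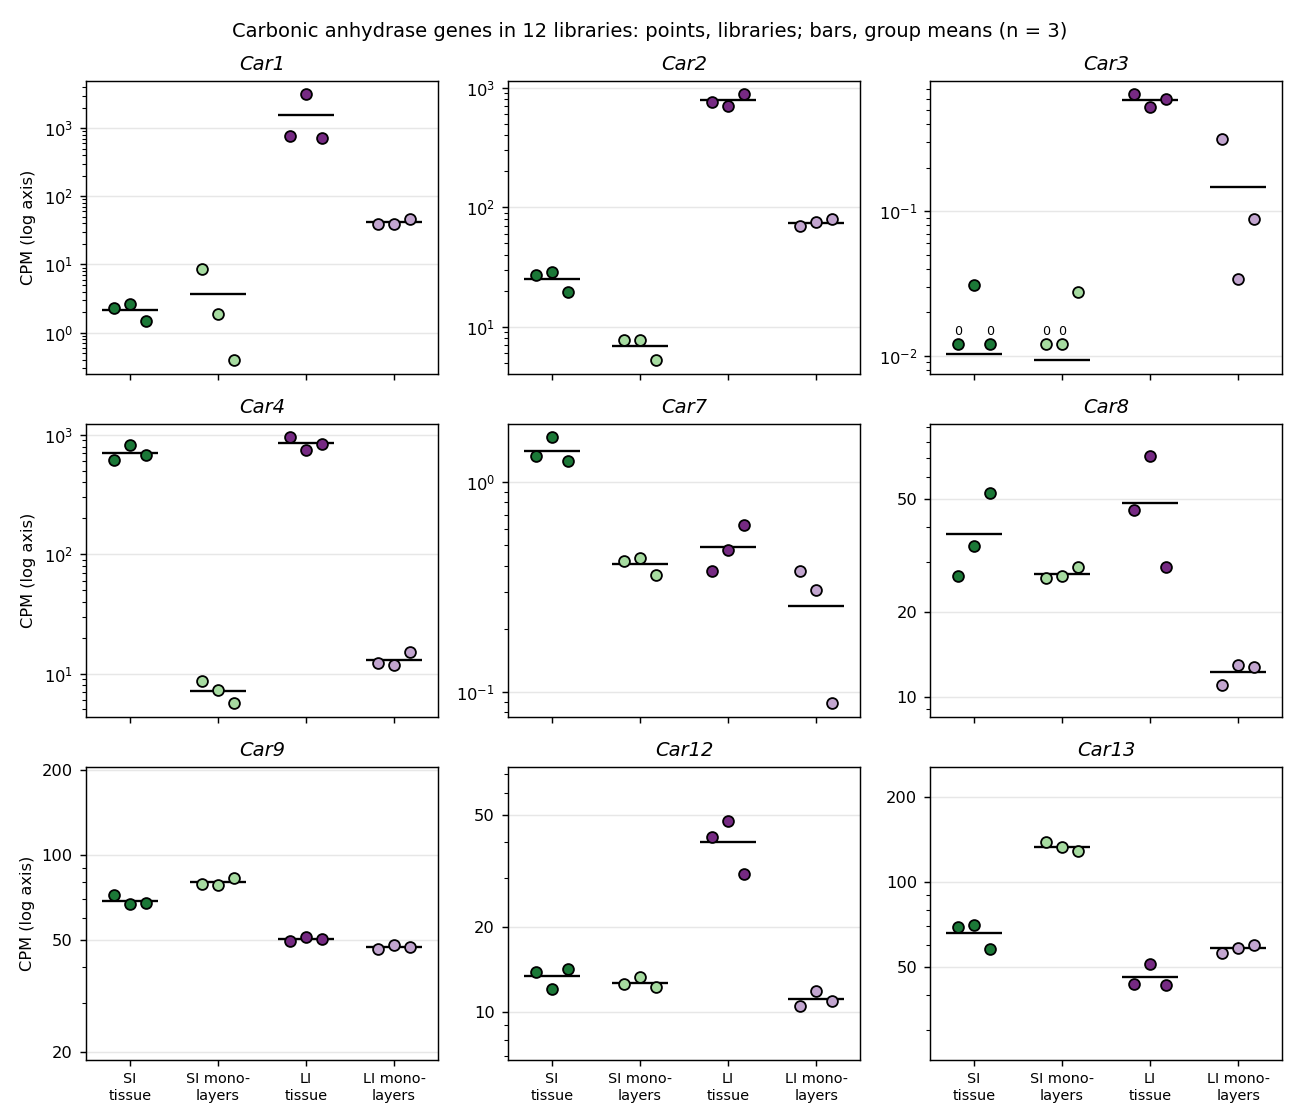
Level of each carbonic anhydrase gene in CPM (log axes, a separate range in each panel) in the 12 libraries: points are libraries, horizontal bars the means of 3. Libraries with 0 counts of Car3 are drawn at the bottom of its panel and marked 0. Car4 averages 705.6 CPM in SI tissue and 849.2 in LI tissue, and 7.18 and 13.1 in their monolayers, Car1 and Car2 are highest in LI tissue, and Car9 lies within a narrow range in every group.

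**Figure D3:**
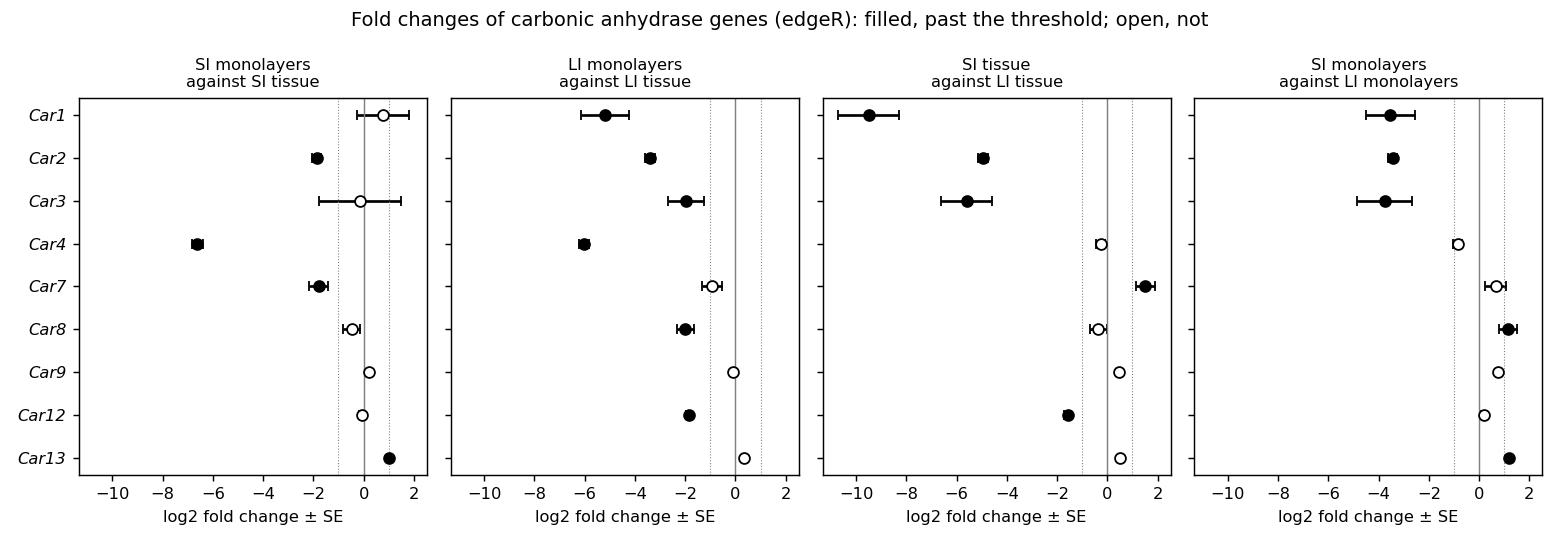
Log2 fold change of each gene in the 4 pairwise comparisons (points) with its standard error (bars). Filled points passed the threshold, open ones did not, and dotted lines mark log2 fold changes of -1 and 1. Among monolayers against tissue, Car4 lies farthest left, at -6.62 in SI and -6.02 in LI, and Car13 is the filled point to the right of 0 in SI.

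Car1, Car2, Car3 and Car13 lie together on chromosome 3, within 259.0 kb (chr3:14641727-14900770, GRCm38). Car1 (chr3:14766216-14808368, minus strand), a cytosolic isozyme abundant in erythrocytes and colon epithelium, was at 2.31, 2.59 and 1.49 CPM in the SI tissue libraries and at 755, 3122 and 709 CPM in LI tissue. Its level was 8.63, 1.90 and 0.390 CPM in SI monolayers and 39.4, 39.5 and 46.6 CPM in LI monolayers. LI tissue was thus highest and LI monolayers next, without overlap, while the SI groups overlapped and the second LI tissue library stood far above the others of its group.

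Car1 was 720-fold lower in SI tissue than in LI tissue (log2 fold change -9.49 ± 1.21 SE, adjusted p = 0.000167, edgeR). It fell 36.5-fold in LI monolayers against LI tissue (log2 -5.19 ± 0.97, adjusted p = 0.00128). Without the second LI tissue library these log2 fold changes were -8.43 and -4.13, and both were still called. In SI monolayers against SI tissue the log2 fold change was 0.77 ± 1.05 (adjusted p = 0.562), and -0.85 without the first SI monolayer library.

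The change in monolayers differed between SI and LI by 5.96 ± 1.37 on the log2 scale (adjusted p = 0.00713), by 4.90 without the second LI tissue library, and by 4.41 and 6.60 without the first and without the third SI monolayer library. Between the monolayers Car1 was 11.6-fold lower in SI (log2 -3.53 ± 0.96, adjusted p = 0.0135). This call was lost without the second SI monolayer library (log2 -3.19, adjusted p = 0.0558), and the log2 fold change was -5.15 without the first.

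Car2 (chr3:14886273-14900770, plus strand), the widely expressed cytosolic isozyme of high activity, was at 27.2, 28.7 and 19.5 CPM in SI tissue and at 760, 710 and 883 CPM in LI tissue. In monolayers it was at 7.73, 7.67 and 5.21 CPM for SI and at 69.4, 74.9 and 79.0 CPM for LI. The order from high to low was LI tissue, LI monolayers, SI tissue, SI monolayers, and no neighbouring groups overlapped.

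Car2 fell 3.66-fold in SI monolayers (log2 -1.87 ± 0.19, adjusted p = 1.24e-05) and 10.5-fold in LI monolayers (log2 -3.40 ± 0.19, adjusted p = 6.96e-08), and the changes differed by 1.53 ± 0.25 (adjusted p = 0.000749). SI was below LI in both preparations, by 31.2-fold in tissue (log2 -4.96 ± 0.20, adjusted p = 1.61e-08) and by 10.8-fold in monolayers (log2 -3.44 ± 0.19, adjusted p = 2.13e-07).

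Red blood cells hold Car1 and Car2 as well. Their markers were likewise highest in LI tissue, but did not follow these genes through all groups: 6 erythroid genes summed to 67.2, 73.6 and 68.0 CPM in LI tissue, to 1.49 to 2.13 CPM in LI monolayers, to 13.8 to 19.2 CPM in SI tissue and to 0.167 to 0.321 CPM in SI monolayers. LI monolayers were thus below SI tissue in this sum, but above it in Car1 and Car2. In LI tissue, 5 of the 6 had a mean of at least 1 CPM, and the highest of them, Hbb-bs, an adult beta globin gene, averaged 36.4 CPM, where Car1 averaged 1529 CPM and Car2 784.4 CPM. The part of red blood cells in the levels of Car1 and Car2 was not tested.

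Car3 (chr3:14863512-14872523, plus strand), the isozyme of muscle and fat of low activity, had few counts in all groups, with 48, 40 and 46 in the LI tissue libraries, above the limit of 3 counts, and 22, 2 and 6 in LI monolayers. The SI groups held 2 counts for tissue and 2 for monolayers, each in 1 library. Most low counts in these tables were even numbers, as where both ends of a fragment are counted, so that 2 counts may be 1 fragment.

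Taken as fragments, Car3 was 56.3 times as abundant in LI tissue as in SI tissue, with an exact 95% interval from counting of 9.77 to 2260. The ratio of LI to SI monolayers was 16.4, with an interval of 2.53 to 691. Both intervals pool the libraries of a group and leave out the spread among them. With that spread, edgeR gave SI below LI by log2 -5.59 ± 1.02 in tissue (adjusted p = 0.000203). In monolayers it gave log2 -3.76 ± 1.10 (adjusted p = 0.00911). The fall in LI monolayers (log2 -1.97 ± 0.71, adjusted p = 0.0216) was no longer called without the first LI tissue library (adjusted p = 0.0571) or the second or the third LI monolayer library (adjusted p = 0.0748 and 0.0740), and was -3.27 without the first LI monolayer library. The call between the monolayers was lost without the first LI monolayer library (adjusted p = 0.100).

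Fat and muscle are other sources of Car3. Of 6 fat cell markers, Adipoq, Cfd, Lep, Plin1 and Retn had means under 1 CPM in every group, while Cidec averaged 35.7 CPM in SI tissue and 29.7 in SI monolayers, and 3.89 and 5.24 CPM in those of LI, where Car3 was higher. Of 6 muscle markers, all but Ckm had means of at least 1 CPM in LI tissue and 2 did in SI tissue, with sums of 45.3, 20.2 and 8.35 CPM in the LI tissue libraries and of 9.10 to 10.4 CPM in SI tissue. In monolayers that sum was 278 to 314 CPM for SI and 418 to 468 CPM for LI, most of it Acta1, and its part in the level of Car3 was not tested.

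Car7 (chr8:104534689-104550343, plus strand), a cytosolic isozyme best known from neurons, was at 1.33, 1.64 and 1.26 CPM in SI tissue, and in no library of the other groups above 0.626 CPM. It fell 3.45-fold in SI monolayers (log2 -1.79 ± 0.39, adjusted p = 0.000814) and was 2.85-fold higher in SI than in LI tissue (log2 1.51 ± 0.38, adjusted p = 0.00305). In LI monolayers against LI tissue its log2 fold change was -0.94 ± 0.41 (adjusted p = 0.0551), with 6 to 26 counts a library in LI monolayers and overlapping groups.

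Car13 (chr3:14641727-14663002, plus strand), a cytosolic isozyme of many tissues, was the member called higher in monolayers. It was at 69.4, 70.4 and 57.8 CPM in SI tissue and at 139, 134 and 129 CPM in SI monolayers. In LI it was at 43.5, 51.1 and 43.4 CPM in tissue and at 56.3, 58.7 and 60.0 CPM in monolayers. All monolayer libraries lay above the tissue libraries of their region, and LI monolayers overlapped SI tissue.

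The rise in SI monolayers was 2.03-fold (log2 1.02 ± 0.08, adjusted p = 1.04e-08), which is just past the fold threshold: it fell below it, to 0.94 to 0.98 on the log2 scale, with DESeq2, with other scalings, with a stricter count filter and without the third SI tissue library. The difference of LI monolayers from LI tissue was 1.27-fold (log2 0.34 ± 0.08, adjusted p = 0.000922), under the threshold. Between the regions, Car13 was 2.29-fold higher in SI monolayers than in LI monolayers (log2 1.20 ± 0.08, adjusted p = 2.44e-09) and 1.43-fold higher in SI tissue than in LI tissue (log2 0.52 ± 0.08, adjusted p = 3.06e-05), the latter under the threshold.

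Among the membrane-bound enzymes, Car4 (chr11:84957786-84966044, plus strand), which acts on the luminal surface, had the largest fall in SI monolayers and in LI monolayers of the 9 genes. It was at 619, 824 and 674 CPM in SI tissue and at 8.65, 7.28 and 5.61 CPM in SI monolayers. In LI it was at 956, 754 and 837 CPM in tissue and at 12.2, 11.9 and 15.1 CPM in monolayers. The tissue groups overlapped each other, and no monolayer library of either region came near the tissue libraries.

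These falls were 98.3-fold in SI (log2 -6.62 ± 0.21, adjusted p = 1.59e-09) and 65.0-fold in LI (log2 -6.02 ± 0.21, adjusted p = 1.22e-09), and the difference between them, -0.60 ± 0.24, did not pass the threshold (adjusted p = 0.0716). Over all alternatives they lay between -6.74 and -6.43 and between -6.22 and -5.93 on the log2 scale. SI and LI tissue differed by -0.27 ± 0.16 (adjusted p = 0.205), and SI monolayers were 1.82-fold below LI monolayers (log2 -0.86 ± 0.18, adjusted p = 0.00240), under the fold threshold. Alongside Car4, the sum of 6 enterocyte markers was lower in monolayers of both regions as given above. That of 6 colonocyte markers was 2800 to 3820 CPM in LI tissue and 924 to 970 CPM in LI monolayers. It was 1710 to 2080 CPM in SI tissue and 2210 to 2290 CPM in SI monolayers. This list thus did not mark LI alone. Krt20, its highest gene in SI tissue, averaged 1160 CPM there and 1420 CPM in LI tissue. Guca2b was at 589.5, 398.4 and 366.1 CPM in SI tissue and at 24.99, 24.46 and 17.1 CPM in LI tissue. Aqp8, Cyp2c55, Guca2a and Ms4a12 were higher in LI tissue. In monolayers, Aqp8 alone of the list was higher in LI than in SI. The part of cell composition in the fall of Car4 was not tested.

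Car9 (chr4:43506966-43513729, plus strand), a transmembrane enzyme known as a target of hypoxia-inducible factor and present in normal gut epithelium, varied least of the 9 genes. It was at 71.9, 66.8 and 67.8 CPM in SI tissue and at 78.7, 78.2 and 83.1 CPM in SI monolayers. LI tissue had 49.6, 51.4 and 50.5 CPM and LI monolayers 46.5, 48.2 and 47.3 CPM. The 4 groups did not overlap, yet the highest group mean was only 1.69 times the lowest.

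No comparison of Car9 reached the fold threshold, though several had small adjusted p-values. The log2 fold change was 0.22 ± 0.05 in SI monolayers (adjusted p = 0.00113) and -0.10 ± 0.05 in LI monolayers (adjusted p = 0.0956). SI lay above LI by 0.45 ± 0.05 in tissue (adjusted p = 1.03e-06) and by 0.76 ± 0.05 in monolayers (adjusted p = 2.32e-09). Of its exon bases, 9.29% overlap Gm12454 on the opposite strand, and whether reads were counted by strand is not given in the sources used here.

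The 30 bases before the RefSeq start of Car9 (chr4:43506996-43507025, plus strand, GRCm38.p6) lie inside the GENCODE gene, whose start is at 43506966. They hold the core letters bound by hypoxia-inducible factor, ACGTG, read on the opposite strand (capitals). They are shown because the next comparison sets Car9 beside other targets of that factor.
Car9: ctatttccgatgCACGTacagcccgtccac
Searched on both strands from 250 bases before to 50 after the start, ACGTG occurs in 19.6% of 32851 promoters, among them those of Car9 and Car4. With GCGTG, which was searched as well, the share is 43.8%, a promoter of Car7 among them, and a match is no proof of binding. RefSeq promoters were matched for 4 of the 9 genes, Car4, Car7, Car9 and Car12.

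Of 12 genes known to respond to hypoxia, 7 rose and 0 fell in SI monolayers, with a list median of 1.39, beside 26.1% called and a median of -0.049 over all tested genes. In LI monolayers 1 rose and 2 fell, with a median of -0.01, and these 3 of 12 are a smaller share than the 38.0% called over all tested genes (median -0.052). Ero1a, an endoplasmic reticulum oxidase, averaged 68.4 CPM in SI tissue and 319.3 in SI monolayers (log2 2.22 ± 0.06, adjusted p = 3.65e-14). Slc2a1, the glucose transporter GLUT1, was called in either region, with a log2 fold change of 2.94 ± 0.08 in SI and 1.23 ± 0.07 in LI.

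Pgk1, a glycolytic kinase, rose by 1.53 ± 0.05 in SI on the log2 scale, the stress gene Ndrg1 by 1.25 ± 0.13 and Ankrd37, an ankyrin repeat gene, by 2.83 ± 0.24. Bnip3, a mitophagy gene, rose by 1.73 ± 0.12 in SI and fell by 1.53 on the log2 scale in LI. Pdk1, a pyruvate dehydrogenase kinase, fell in LI monolayers (log2 -2.86 ± 0.06, adjusted p = 2.23e-15). Between the regions, 8 of the 12 were called higher in SI than in LI monolayers and 0 lower, beside 21.2% of all tested genes called, and in tissue 1 higher and 2 lower, a share near the 22.7% over all tested genes. Vegfa, the vascular growth factor gene, was higher in SI monolayers than in LI monolayers by 1.35 ± 0.08 on the log2 scale, Egln3, a prolyl hydroxylase of the factor, by 2.21 ± 0.11 and Ldha, lactate dehydrogenase A, by 1.05 ± 0.05. In tissue SI already lay above LI by 1.41 ± 0.10 for Egln3 and 0.70 ± 0.05 for Ldha, and by 0.05 ± 0.08 for Vegfa. The interaction was called for Vegfa (1.31 ± 0.11) but not for Egln3 (0.80 ± 0.14) or Ldha (0.35 ± 0.07). Car9 stayed within 1.16-fold in SI, where 7 genes of the list rose by 1.25 or more on the log2 scale. Others of the list were not called there either, with log2 fold changes of 0.16 ± 0.10 for Egln3 and 0.32 ± 0.06 for Pdk1. Those of Ldha and Vegfa were 0.33 ± 0.05 and 0.70 ± 0.08.

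Car12 (chr9:66713686-66766845, plus strand), a transmembrane enzyme of the basolateral membrane in many epithelia, was high in LI tissue alone. It was at 41.6, 47.7 and 31.0 CPM there. SI tissue had 13.9, 12.1 and 14.2 CPM, SI monolayers 12.6, 13.4 and 12.3 CPM and LI monolayers 10.6, 11.95 and 11.0 CPM. LI tissue lay above all other groups without overlap, and SI tissue and SI monolayers overlapped.

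Car12 fell 3.59-fold in LI monolayers (log2 -1.84 ± 0.13, adjusted p = 4.24e-09), and in SI monolayers its log2 fold change was -0.07 ± 0.13 (adjusted p = 0.640). The 2 changes differed by 1.77 ± 0.18 (adjusted p = 1.36e-06). In tissue, SI was 2.99-fold below LI (log2 -1.58 ± 0.13, adjusted p = 5.65e-08), whereas in monolayers the difference was 0.19 ± 0.13 (adjusted p = 0.226).

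Car8 (chr4:8143362-8239041, minus strand), the relative without catalytic activity, was at 26.7, 34.0 and 52.8 CPM in SI tissue and at 26.2, 26.7 and 28.8 CPM in SI monolayers. In LI it was at 45.7, 71.3 and 28.8 CPM in tissue and at 11.0, 13.0 and 12.7 CPM in monolayers. LI monolayers lay below the other groups, which overlapped each other, and the tissue libraries were spread far more widely than the monolayer libraries.

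Car8 fell 3.97-fold in LI monolayers (log2 -1.99 ± 0.35, adjusted p = 0.000828), and its log2 fold change in SI monolayers was -0.48 ± 0.34 (adjusted p = 0.257). The difference between these changes, 1.51 ± 0.48 (adjusted p = 0.0306), was no longer called without the first (adjusted p = 0.0636) or second (0.0703) SI tissue library, the third SI monolayer library (0.0517) or the first LI monolayer library (0.0586). SI monolayers were 2.23-fold above LI monolayers (log2 1.15 ± 0.35, adjusted p = 0.0215), a call that was lost on leaving out the third SI monolayer library or any of the LI monolayer libraries (adjusted p = 0.0506 to 0.0687). SI and LI tissue differed by -0.36 ± 0.33 (adjusted p = 0.405), and by 0.02 without the second LI tissue library.

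Markers of Paneth cells, the antimicrobial cells of the SI crypt base, stood in the same order as Car8 in SI tissue. There 6 of them summed to 2650, 5220 and 12300 CPM. The goblet cell sum stood in this order as well, at 5480, 6920 and 8750 CPM. The enterocyte sum ran in reverse, at 10400, 8360 and 6040 CPM, as did that of 6 enteroendocrine markers, at 585, 414 and 334 CPM. In LI tissue the Paneth list summed to 468, 927 and 421 CPM, most of it Ang4, at 430, 901 and 410 CPM. Ang4 and Mmp7 were highest there in the second library, as was Car8, but Lyz1, Defa17, Defa22 and Habp2 were highest in the first. The goblet cell sum in LI tissue was 15300, 19500 and 17700 CPM, likewise highest in the second library. In monolayers the median sum of the Paneth list was 4200 CPM for SI and 48.0 CPM for LI. The part of Paneth cells, goblet cells or other cell types in the spread of Car8 was not tested.

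The other 7 carbonic anhydrase genes were low. Of these, 6 were tested and Car5a was not, with a mean of at most 0.0427 CPM in any group. Car5b, a mitochondrial isozyme, was the exception, at 5.74, 6.39 and 6.40 CPM in LI monolayers against 0.458, 0.636 and 0.496 CPM in LI tissue (log2 3.54 ± 0.49, adjusted p = 2.74e-05). In SI tissue and SI monolayers it was at 0 to 0.278 CPM, and its change differed between SI and LI by -3.65 ± 0.86 (adjusted p = 0.00401).

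Car6, the secreted isozyme, Car10 and Car11, relatives without catalytic activity, and the membrane-bound Car14 and Car15 had group means of 0.0291 to 0.943 CPM. Of these, Car14 was called lower in SI monolayers (log2 -1.74 ± 0.66, adjusted p = 0.0318), Car15 lower in monolayers of SI (log2 -2.02 ± 0.64, adjusted p = 0.0124) and of LI (log2 -1.51 ± 0.63, adjusted p = 0.0444), and Car6 higher in SI than in LI monolayers (log2 3.37 ± 0.99, adjusted p = 0.00939).

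Carbonic anhydrases work with transporters that carry bicarbonate, protons and chloride. Of 18 such genes 16 were tested. In SI monolayers 1 rose and 4 fell, with a list median of -0.37, and in LI monolayers 0 rose and 5 fell, with a median of -0.40. The counts of 5 called out of 16 stand beside 26.1% and 38.0% of all tested genes.

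Slc26a3, the chloride/bicarbonate exchanger of the apical membrane, fell in SI monolayers (log2 -1.21 ± 0.11) and in LI monolayers (log2 -1.81 ± 0.11), as did Slc9a3, the apical sodium/proton exchanger NHE3, by -3.05 ± 0.18 and -6.65 ± 0.22. Slc9a3 averaged 314.0 CPM in SI tissue and 37.9 in SI monolayers, and 242.1 CPM in LI tissue and 2.42 in LI monolayers. These 2 exchangers, Car2 and Car4 were lower in monolayers of both regions. Most calls in the list were falls, but Slc26a3 and Slc9a3 were its only genes called in both regions, and not all of the list was lower. Slc9a2, a further sodium/proton exchanger, was higher in both, by 0.27 ± 0.06 and 0.74 ± 0.06 on the log2 scale, under the threshold.

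Slc26a6, another apical anion exchanger, fell in SI monolayers (log2 -1.91 ± 0.27, adjusted p = 0.000238), and so did the bicarbonate cotransporter Slc4a5 (log2 -2.22 ± 0.35, adjusted p = 0.000371). In LI monolayers the log2 fold change of Slc26a6 was 0.64 ± 0.31 (adjusted p = 0.0975, edgeR). Cftr, the chloride and bicarbonate channel, fell in LI monolayers (log2 -2.65 ± 0.07) and so did Slc16a1, a carrier of lactate and short-chain fatty acids (log2 -1.74 ± 0.07). Their log2 fold changes in SI, -0.73 ± 0.06 and -0.59 ± 0.07, were under the threshold.

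Best2, a bicarbonate channel of colonic goblet cells, had 2208, 2271 and 3611 counts in LI tissue and 0, 0 and 8 in LI monolayers. The sum of 6 goblet cell markers was 1490 to 1670 CPM in LI monolayers, against 15300 to 19500 CPM in LI tissue, and its part in the loss of Best2 was not tested. Atp12a, the colonic proton pump, was 215.1 CPM in LI tissue and 352.1 CPM in LI monolayers on average, and rose in SI from 1.28 to 2.76 CPM (log2 1.13 ± 0.31, adjusted p = 0.0119).

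Between the regions, 4 of the 16 transport genes were called higher and 3 lower in SI than in LI tissue, beside 22.7% of all tested genes called, and 5 higher and 3 lower in SI than in LI monolayers, beside 21.2%. Slc9a2, a sodium/proton exchanger, was called lower in SI than in LI monolayers (log2 -1.22 ± 0.06), and Slc9a3r1, a scaffold of NHE3, higher in SI than in LI tissue (log2 1.36 ± 0.11). The bicarbonate cotransporters Slc4a4 and Slc4a7 passed the threshold only in the interaction among the 5 comparisons, at -1.10 ± 0.10 and 1.35 ± 0.14.

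**Figure D4:**
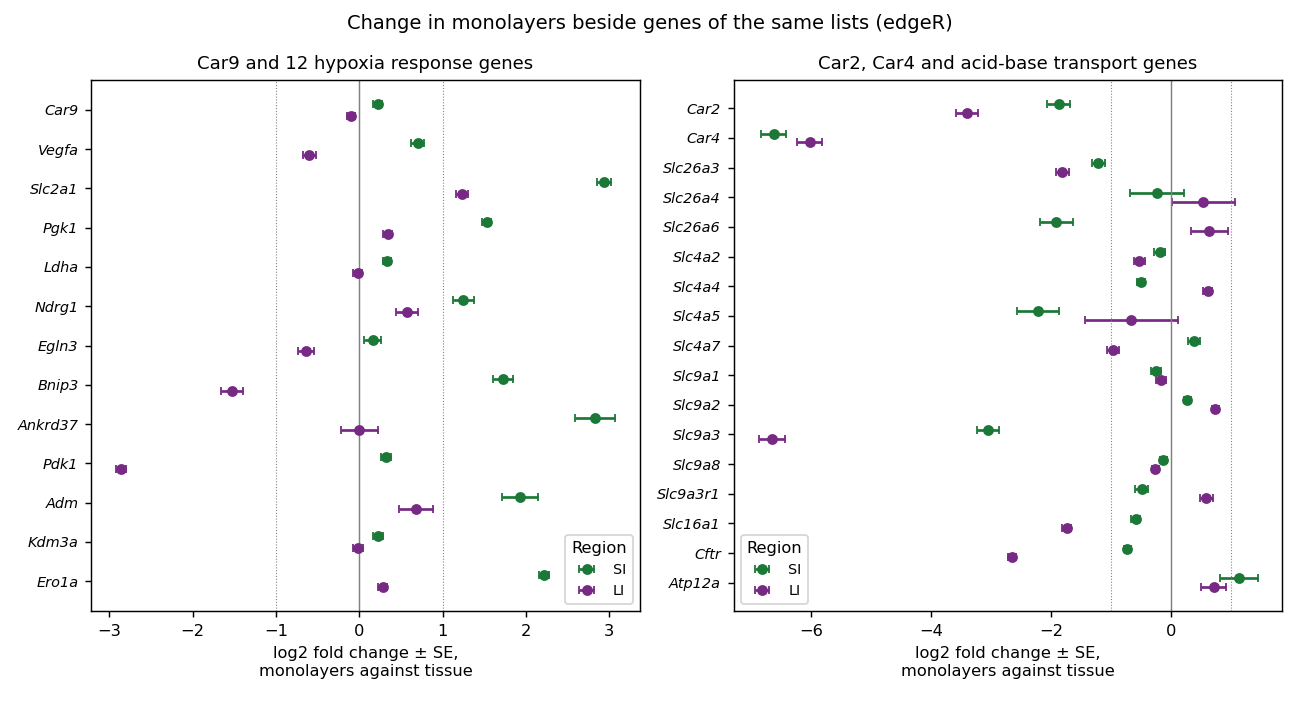
Log2 fold change of monolayers against tissue with its standard error (bars) in SI (green) and LI (purple). Left: Car9 above 12 hypoxia response genes. Right: Car2 and Car4 above 15 of the tested acid-base transport genes, without Best2, which had 0 counts in 2 LI monolayer libraries. Car9 lies near 0 in both regions (0.22 and -0.10), as does Ldha (0.33 and -0.02), where Slc2a1 lies at 2.94 and 1.23. Car2, Car4, Slc26a3 and Slc9a3 lie left of -1 in SI and LI, and Slc9a2 lies right of 0 in both (0.27 and 0.74).

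For each gene with a group mean of at least 10 CPM, the genes of nearest pattern over the 12 libraries were sought among 10171 genes, by the root mean square difference of log2 CPM after each gene was centred on its own mean. Car9 had the closest matches, Parp1 at 0.0547 and Lbr at 0.0772. Those of Car13 were Slc25a1 at 0.111 and Fam83b at 0.131, and that of Car12 was Tceal9 at 0.173. Slc25a1, the mitochondrial citrate carrier, averaged 388 CPM in SI monolayers and 215 in SI tissue, and 174 and 152 CPM in those of LI.

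For Car2 the nearest were B3gnt5 at 0.290 and St6gal1 at 0.312, a pair of glycosyltransferase genes, and for Car8 Tmem223 at 0.292 and Slc7a4 at 0.313. Matches were looser for Car4, with Prelp at 0.584 and Gm12250 at 0.653, and for Car1, with Nxpe4 at 0.916 and Tgm3 at 0.938. Tgm3, a transglutaminase, averaged 995 CPM in LI tissue and 38.5 in LI monolayers, and 1.75 and 1.84 CPM in those of SI, where Car1 averaged 1529, 41.8, 2.13 and 3.64 CPM.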

How the data were processed

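Differential expression of 9 carbonic anhydrase genes was analysed in 12 RNA-seq libraries, 3 per group, grouped by their labels. The authors deposited raw counts per gene from paired-end reads, made with STAR (2.7.9a) and featureCounts (2.0.2) on GRCm38 with GENCODE genes per the submitters' processing notes and the study's methods. The authors also deposited a normalized signal, the counts divided by a DESeq2 size factor, which served only as an alternative for levels. Columns left unused numbered 0.

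Counts were tested with edgeR (4.0.16; R 4.3.3; limma 3.58.1) after filterByExpr and TMM scaling, with robust quasi-likelihood fits in 1 model of 4 group means and Benjamini-Hochberg adjustment over 19581 genes (median biological coefficient of variation 0.127). Genes were called at an adjusted p under 0.05 and a log2 fold change of at least 1 in size. CPM and RPKM used TMM library sizes and union exon lengths, and n = 3 throughout. Of 55487 genes, 55227 were named from the annotation. Every replicate pair differed by more than counting noise (1.44 to 2.65 times).

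The members, gene lists and tests were chosen with earlier results of these data known. Named were all 9 members, the other carbonic anhydrases, genes of the acid-base and hypoxia lists called in any comparison with a group mean of at least 10 CPM, and the 2 nearest genes of each member with such a mean. A few items under this rule are not reported here. Marker genes are named where a result stands beside them. The fitting script was tested on simulated data. Alternatives were DESeq2 (1.42.0), RLE and upper quartile scaling, other count filters, only the groups compared, counts halved, a replicate block, the authors' normalized counts, and each library left out in turn.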

Additional observations from a re-analysis of the deposited data

Results flagged for a closer look

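The change in monolayers differed between SI and LI, by the edgeR interaction test, for 4 carbonic anhydrase genes described above. The log2 change in SI minus that in LI was 5.96 for Car1, 1.53 for Car2, 1.51 for Car8 and 1.77 for Car12. Car1, Car2, Car8 and Car12 all fell in LI monolayers, and of them Car2 was called in SI monolayers as well, with a smaller fall. The call for Car8 rested on single libraries as given above. Of the other carbonic anhydrases, Car5b had a difference of -3.65, with its rise in LI monolayers.

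Among the acid-base transport genes the difference was 3.60 for Slc9a3, 1.92 for Cftr, 1.35 for Slc4a7 and 1.14 for Slc16a1, whose log2 changes were higher in SI, and -2.55 for Slc26a6, -1.10 for Slc4a4 and -1.08 for Slc9a3r1, whose changes were higher in LI. The value for Best2, 9.86, rests on 0 to 12 counts a library outside LI tissue and is no measure of size. Among the hypoxia response genes it was 3.26 for Bnip3, 3.18 for Pdk1, 2.84 for Ankrd37, 1.94 for Ero1a, 1.71 for Slc2a1, 1.31 for Vegfa and 1.19 for Pgk1, each higher in SI. Over all tested genes 20.0% were called in this interaction.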

How the results depend on the processing

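Of 874 alternative log2 fold changes of the 9 genes, 842 kept their direction and call, and 34 of the 45 results did so in every alternative. Of 198 counts of calls, 191 stayed within 1.5 times, as did 159 of 160 levels within 1 SD (Car9 in LI tissue was 22.5 RPKM from the authors' normalized counts). With a minimum of 10 counts in every library, which removes low genes, 2 of the 9 were called in SI monolayers against SI tissue and 3 in SI against LI tissue, and over all genes 3140, 4797, 2606 and 2442 were called in the 4 pairwise comparisons in the order of the text. Leaving out 1 library gave 3 to 5 called members between SI and LI monolayers. Reversed, none of them called, were Car1 in SI monolayers without the first SI monolayer library (-0.85; to 1.34 over all libraries left out), Car3 there without the second SI tissue library (2.63) or the first (0.37) or second (0.41) SI monolayer library (down to -2.73 without the third), Car8 between tissues without the second LI tissue library (0.02), and the Car3 interaction without the third SI monolayer library (-0.68; up to 4.60 over the others). Car7 in LI monolayers was called with upper quartile scaling (-1.05) and on leaving out any of 6 libraries. Upper quartile scaling moved the median over all genes in LI to -0.171 from -0.052. DESeq2 gave Car1 no adjusted p. Same-numbered libraries did not deviate together (r of -0.052 to 0.056), and the replicate block left 4, 6, 5, 5 and 3 members called, losing the interaction of Car8 (1.52, adjusted p = 0.0520), and 3807 genes in that interaction. Car3 and Car7 are limited by depth.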
